A study of Mus musculus with 16 samples.

Results

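The 10 genes Serpinf1, Dpp4, Mmp2, Fap, Col1a1, Col1a2, Col3a1, Sparc, Cxcl12 and Lepr, which are commonly used to describe bone marrow stroma and its matrix, were followed in RNA of haematopoietic stem and progenitor cells. They were chosen by symbol, with earlier results of the same libraries known, so their levels and differences are a description and no independent evidence. Of the 30141 genes counted, 9 were members of the set; Col3a1 was not analysed here. The cells were LSK cells, the lineage-negative, Sca1-positive and Kit-positive marrow fraction that holds stem cells and early progenitors.

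All cells came from transplants. Donors of a C57BL/6N-derived knock-in line carried human DNMT3A with R882H behind a Lox-Stop-Lox cassette, beside a mouse WT Dnmt3a allele, together with the Mx1-Cre transgene. Mx1-Cre answers to interferon and is active in many tissues besides blood. The labels describe Cre-positive and Cre-negative donors of matched age, all given poly(I:C) at 15 µg/g, and also mention a 400 µg schedule without saying which animals had it. After 4 weeks donor marrow was mixed 1:1 with competitor marrow of B6.SJL-Ptprca Pepcb/BoyJ mice, and the mixture went into recipients of that congenic background. Treatment lasted 2 weeks, 5 days on, 2 off and 5 on. The groups were R882H with azacitidine at 2.5 mg/kg (n = 5 libraries), R882H with 0.9% NaCl (n = 4), WT with the same azacitidine dose (n = 3) and WT with 0.9% NaCl (n = 4). Azacitidine is a cytidine analogue that traps DNA methyltransferases on DNA. The labels do not say whether donor and competitor cells were separated in the sort, whether each library is 1 animal, or how old or of which sex the mice were. P-values therefore measure the spread between these libraries only, which may be technical.

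In marrow, Lepr-positive perivascular stromal cells make Cxcl12, the chemokine that holds stem cells in their niche through the receptor Cxcr4. Fibroblasts and bone-forming cells lay down fibrillar collagens, Sparc binds collagen, and Mmp2 and Fap cut matrix proteins. Dpp4 removes dipeptides from peptide ends and inactivates Cxcl12, and Serpinf1, or PEDF, is a secreted serpin without protease-inhibiting activity that limits vessel growth. After a marrow transplant the stroma is largely that of the recipient.

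The members analysed lie on 5 chromosomes (GRCm38). Serpinf1 (ENSMUSG00000000753) spans chr11:75409769-75422701, Sparc (ENSMUSG00000018593) chr11:55394500-55423183 and Col1a1 (ENSMUSG00000001506) chr11:94936224-94953042. Dpp4 (ENSMUSG00000035000) spans chr2:62330073-62412231 and Fap (ENSMUSG00000000392) chr2:62500943-62574075. Mmp2 (ENSMUSG00000031740) spans chr8:92827291-92853420, Cxcl12 (ENSMUSG00000061353) chr6:117168535-117181367, Col1a2 (ENSMUSG00000029661) chr6:4504814-4541544 and Lepr (ENSMUSG00000057722) chr4:101717404-101815352. Counts were taken over each gene's exons as a whole, so no isoform is told apart. The antisense gene Gm13561, which overlaps Dpp4, had 67 counts in all libraries together, against 36115 for Dpp4.

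Start-site windows from RefSeq (GRCm38.p6, 250 bases before to 50 after a gene's start) are shown for the most abundant member, for Dpp4, which varied with it across libraries, and for Col1a2, the most abundant of the low members. They are given 5′ to 3′ on the gene's own strand, with each CG, the dinucleotide that DNA methyltransferases modify, in capitals. The windows are chr11:75422574-75422873 on the minus strand, chr2:62412182-62412481 on the minus strand and chr6:4505368-4505667 on the plus strand. The start is the one RefSeq gives, which can differ from the gene spans above. The Col1a2 window lies wholly inside its span, as do the Sparc window, chr11:55420031-55420330, and the second Lepr window, chr4:101717656-101717955.
Serpinf1: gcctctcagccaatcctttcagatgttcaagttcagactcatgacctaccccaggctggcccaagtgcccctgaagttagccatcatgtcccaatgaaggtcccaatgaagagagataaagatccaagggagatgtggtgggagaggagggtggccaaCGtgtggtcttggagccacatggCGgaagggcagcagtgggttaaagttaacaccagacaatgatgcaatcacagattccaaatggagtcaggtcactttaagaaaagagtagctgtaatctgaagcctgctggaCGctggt
Dpp4: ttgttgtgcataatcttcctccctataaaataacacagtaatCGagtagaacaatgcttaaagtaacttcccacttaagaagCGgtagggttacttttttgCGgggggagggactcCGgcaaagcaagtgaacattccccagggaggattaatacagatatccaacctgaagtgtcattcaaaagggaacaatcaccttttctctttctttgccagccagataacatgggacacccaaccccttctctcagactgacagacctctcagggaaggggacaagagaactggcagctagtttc
Col1a2: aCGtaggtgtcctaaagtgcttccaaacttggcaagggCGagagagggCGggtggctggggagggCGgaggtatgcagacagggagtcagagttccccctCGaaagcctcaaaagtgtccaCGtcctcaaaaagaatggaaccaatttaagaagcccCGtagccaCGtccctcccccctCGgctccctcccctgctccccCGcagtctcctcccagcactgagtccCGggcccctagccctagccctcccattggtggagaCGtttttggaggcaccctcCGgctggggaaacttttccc

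The Serpinf1 window held 3 CG and the Dpp4 window 4, against a median of 7 over all 32851 windows. Of all windows, 31.4% had 3 or fewer and 38.0% had 4 or fewer. Col1a2 held 13 CG, and 63.7% of windows had as few. The other matched members were Cxcl12 with 20 CG, Sparc with 4, Lepr with 18 and 13 in its 2 windows, and Col3a1 with 0, so 7 of 10 members were matched and Mmp2, Fap and Col1a1 were not. Searched on both strands, TGTGGT, the core letters bound by RUNX factors, occurred 2 times in the Serpinf1 window and in 16.8% of all windows. The letters AGATAA, bound by GATA-family factors, occurred 1 time each in the Serpinf1 and Dpp4 windows and in 11.2% of all windows. AGGAAG, an ETS motif, occurred 1 time in the Dpp4 window and in 35.4% of all, and the E-box CACGTG, in 7.15% of all, in no member's window. No match overlapped another, and the Col1a2 window held none of these letters. A match describes letters and not a bound site, and DNA methylation was not measured.

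Depth was 35860445 to 56012766 counts per library, of which repeats took 2.97 to 10.1%. Levels below are CPM, which scale the count to the library size after TMM normalisation, or, between genes, FPKM as the authors deposited it, which also divides by gene length. Mouse Dnmt3a stood at 62.9 to 146 CPM in every library. The human allele was not counted on its own, so this level does not check the genotype labels. In R882H with NaCl and in both WT groups, libraries numbered 1 and 2 lay at 28.1 to 78.6 on the first principal component, which holds 26.4% of the variance, and those with higher numbers at -63.7 to -11.3. R882H with azacitidine showed no such split: replicate 1 was at -44.2, replicate 2 at 0.759 and the other 3 at -29.7 to -21.9. No label explains these numbers.

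The set splits into 3 genes plainly present in these libraries and 6 at a low level. Serpinf1 averaged 37.6 FPKM over the 16 libraries (9.24 to 82.9), above 93.5% of all genes. Dpp4 averaged 8.09 FPKM and Mmp2 4.60 FPKM. Col1a2 followed at 0.302 FPKM, Sparc at 0.149, Fap at 0.138, Col1a1 at 0.0907, Cxcl12 at 0.0452 and Lepr at 0.00528 FPKM. The order Serpinf1, Dpp4, Mmp2, Col1a2 held in 16 of 16 libraries. From there on neighbours did not separate beyond their spread: Col1a2 exceeded Sparc in 12 of 16 libraries, Sparc exceeded Fap in 11, Fap exceeded Col1a1 in 10 and Col1a1 exceeded Cxcl12 in 11. Cxcl12 exceeded Lepr in 15 of 16.

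**Figure D1:**
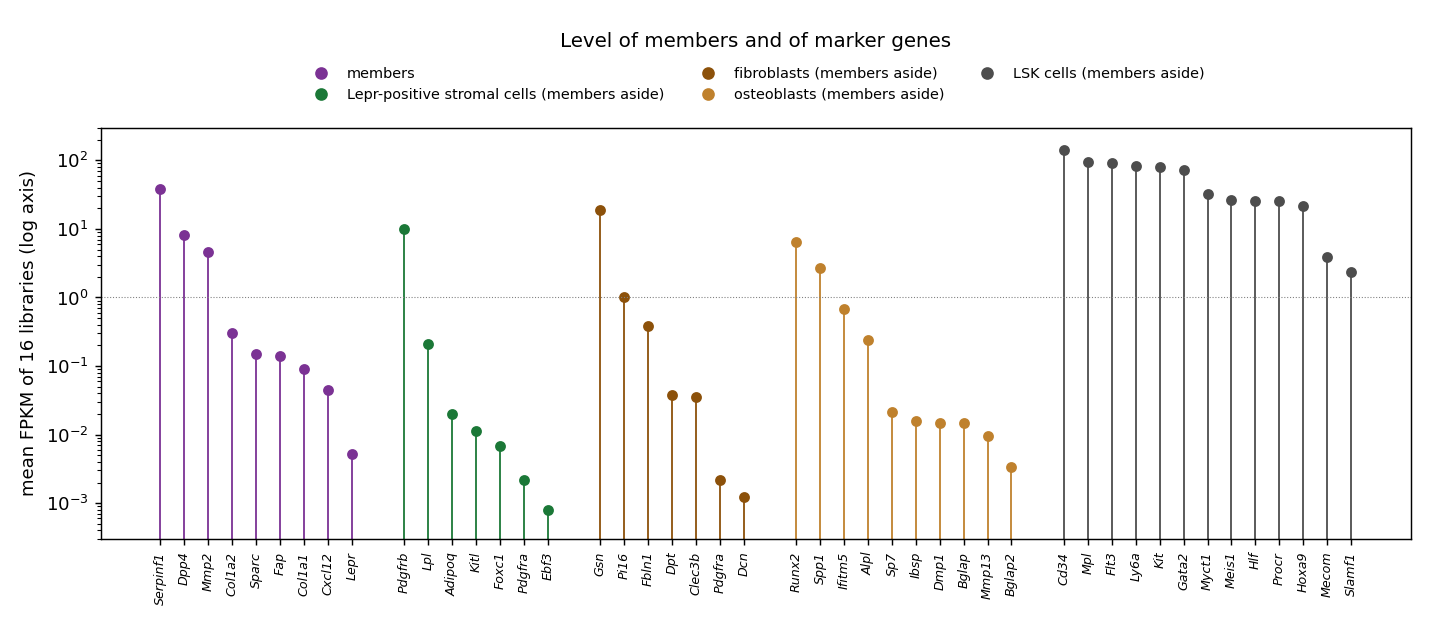
Mean FPKM over the 16 libraries on a log axis for the 9 members analysed and for markers of 4 cell types, members left out of the marker lists; the dotted line is 1 FPKM. Serpinf1, Dpp4 and Mmp2 lie above that line, as do the LSK markers and, of the other lists, Gsn, Pdgfrb, Runx2, Spp1 and Pi16. The other 6 members lie below it, as do the remaining markers, among them Adipoq, Pdgfra, Ebf3 and Dcn.

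The label of marrow stroma goes against the defining markers. Lepr had 26 counts in all 16 libraries together and 0 in 9 of them. Adipoq, Ebf3 and Pdgfra, which mark Lepr-positive stromal cells, were at 0 in 11, 13 and 12 libraries, and the fibroblast proteoglycan Dcn was at 0 in 14. Of 9 Lepr-positive stromal markers, 2 averaged 1 CPM or more, Pdgfrb at 57.9 CPM and Lpl at 2.32 CPM. Of 11 fibroblast markers, 9 were counted and 4 reached 1 CPM, namely Col1a2, Gsn, Pi16 and Fbln1. Of 10 osteoblast markers 3 did, Runx2 at 59.4 CPM, Spp1 at 4.73 CPM and Alpl at 1.01 CPM, while Sp7, Ibsp, Bglap and Dmp1 averaged under 0.1 FPKM. None of 5 adipocyte and none of 7 pericyte markers did, with sums of 0.258 to 1.75 CPM and 0.411 to 1.68 CPM per library. Of 10 endothelial markers 7 did, summing to 259.8 to 584.5 CPM, led by Egfl7 at 168 CPM and Pecam1 at 101 CPM, while Cdh5 averaged 0.0518 CPM. By contrast 13 of 13 LSK markers did, summing to 2008 to 5449 CPM. The set is therefore described by its leading genes, Serpinf1, Dpp4 and Mmp2. Markers of mature blood cells were also present, with sums per library of 261 to 3162 CPM for plasma cells. They were 2.54 to 614 CPM for neutrophils and 32.6 to 107 CPM for B cells. Monocyte and macrophage markers summed to 363.7 to 966.5 CPM. Dendritic cell markers, which include the LSK marker Flt3, summed to 640.3 to 1518 CPM. Which cells held the members was not tested. In bulk RNA, fewer cells that contain a transcript and less of it per cell cannot be told apart.

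Dpp4 and Fap, closely related proline-cleaving peptidases, are neighbours on chromosome 2 with 88711 bases between them. Their mean levels were 8.09 and 0.138 FPKM. The 1 protein-coding gene between them, Gcg, averaged 0.00494 CPM in R882H with azacitidine and 0 in the other 3 groups.

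Serpinf1, the secreted PEDF, stood at 55.1, 43.7, 53.1, 70.9 and 64.1 CPM in R882H with azacitidine and at 53.0, 31.5, 148 and 201 CPM in R882H with NaCl. Treated libraries were close together, and the NaCl libraries lay apart from each other, replicates 1 and 2 within or below the treated range and replicates 3 and 4 above it. In WT it stood at 23.3, 65.9 and 62.2 CPM with azacitidine and at 161, 149, 134 and 166 CPM with NaCl. All 3 treated WT libraries lay below all 4 with NaCl, at a mean of 50.5 ± 23.6 CPM (SD, n = 3) against 153 ± 14.1 CPM (SD, n = 4).

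Dpp4, the cell-surface peptidase that inactivates Cxcl12, was found at 41.0, 43.7, 45.0, 40.0 and 52.2 CPM in R882H with azacitidine and at 38.9, 39.3, 85.0 and 78.3 CPM in R882H with NaCl. Again NaCl replicates 1 and 2 sat just under the treated range and replicates 3 and 4 above it. The WT values were 38.2, 34.1 and 44.0 CPM with azacitidine and 56.2, 58.4, 81.1 and 79.4 CPM with NaCl, with no overlap.

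Mmp2, the gelatinase that cuts basement-membrane collagen, was measured at 12.5, 13.5, 10.5, 11.3 and 15.95 CPM in R882H with azacitidine and at 15.9, 6.65, 26.8 and 30.9 CPM in R882H with NaCl. NaCl replicate 2 was the lowest of these 9 libraries and replicate 4 the highest. WT libraries had 6.21, 5.14 and 11.6 CPM with azacitidine and 12.1, 19.5, 29.5 and 30.7 CPM with NaCl. The highest treated and the lowest NaCl library of WT lay close together, and they overlapped when the plain gene-count total replaced the TMM size.

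**Figure D2:**
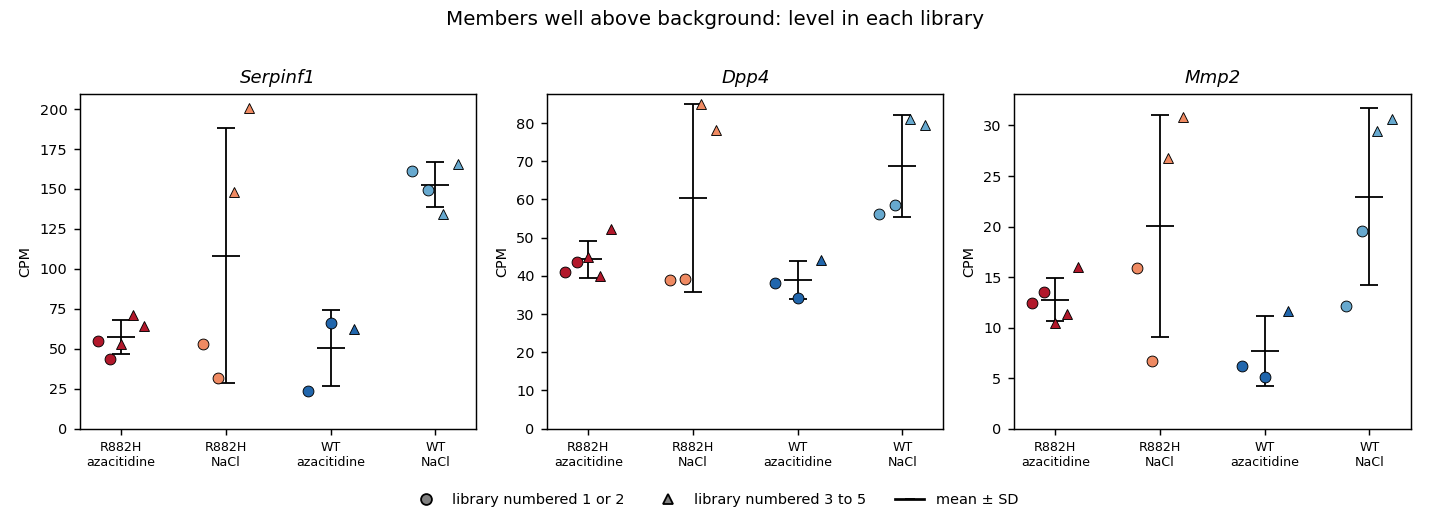
CPM of Serpinf1, Dpp4 and Mmp2 in each library by group; bars are mean ± SD, circles are libraries numbered 1 or 2 and triangles those numbered 3 to 5. In WT every azacitidine library is below every NaCl library, while in R882H the NaCl circles lie among or below the azacitidine libraries.

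These 3 genes carried 86.7 to 98.8% of the summed CPM of the set. The sum was 107 to 138 CPM in R882H with azacitidine and 116, 81.3, 267 and 318 CPM in R882H with NaCl. It was 78.2 to 124 CPM in WT with azacitidine and 230 to 282 CPM in WT with NaCl. The ratio of means, azacitidine over NaCl, was 0.621 in R882H and 0.419 in WT.

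In R882H, azacitidine-treated cells averaged 57.4 ± 10.5 CPM (SD, n = 5) of Serpinf1 and cells with NaCl 108 ± 79.7 CPM (SD, n = 4). The edgeR quasi-likelihood log2 difference was -0.92 (SE 0.41), with an adjusted p of 0.722. Dpp4 had -0.44 (SE 0.22, adjusted p = 0.762) and Mmp2 -0.65 (SE 0.38, adjusted p = 0.783) in the same test. Without NaCl replicate 4 these differences were -0.44 for Serpinf1, -0.29 for Dpp4 and -0.37 for Mmp2, and without NaCl replicate 3 that of Dpp4 was -0.23. None of the 8 members that passed the count filter was called at an adjusted p under 0.05, against 0.00545% of the 18341 genes tested, which is 1 gene, the antisense RNA Gm11837. At an unadjusted p under 0.05 there were 2, Serpinf1 and Fap, both lower, where 4.45% of all genes were lower and 2.24% higher. No member had groups that did not overlap, against 0.485% of genes lower and 1.09% higher. DESeq2, which gave no adjusted p for 1 of the 8, and limma-voom called no member either.

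In WT all 3 abundant members were lower in each treated library than in each library with NaCl, though none passed the adjusted threshold. Serpinf1 had a log2 difference of -1.60 (SE 0.49, edgeR adjusted p = 0.802), Mmp2 -1.58 (SE 0.45, adjusted p = 0.768) and Dpp4 -0.83 (SE 0.26, adjusted p = 0.812). Of 8 members 0 were called in edgeR, as were 0% of all genes. DESeq2, which called more genes than edgeR in this comparison, and limma-voom called no member either. The lowest adjusted p of a member was 0.0746 in DESeq2 and 0.906 in limma-voom. At an unadjusted p under 0.05 there were 3, these same genes, all lower, against 2.03% of genes lower and 3.99% higher. Groups that did not overlap were found for 5 of 8: Serpinf1, Dpp4 and Mmp2 lower, against 2.79% of genes, and Col1a1 and Sparc higher, against 2.94%. With the plain gene-count total, 3 remained, Serpinf1, Dpp4 and Sparc.

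The difference between the responses, R882H minus WT, was tested directly. It was 0.68 (SE 0.63) for Serpinf1, 0.93 (SE 0.58) for Mmp2 and 0.38 (SE 0.34) for Dpp4 on the log2 scale, with edgeR adjusted p-values of 0.763 to 0.994 over the 8 members. None was called in edgeR, as were 0% of all genes there, and DESeq2 and limma-voom called no member. None passed an unadjusted p of 0.05, where 4.92% of genes were lower and 1.16% higher. The responses of the genotypes were therefore not shown to differ.

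**Figure D3:**
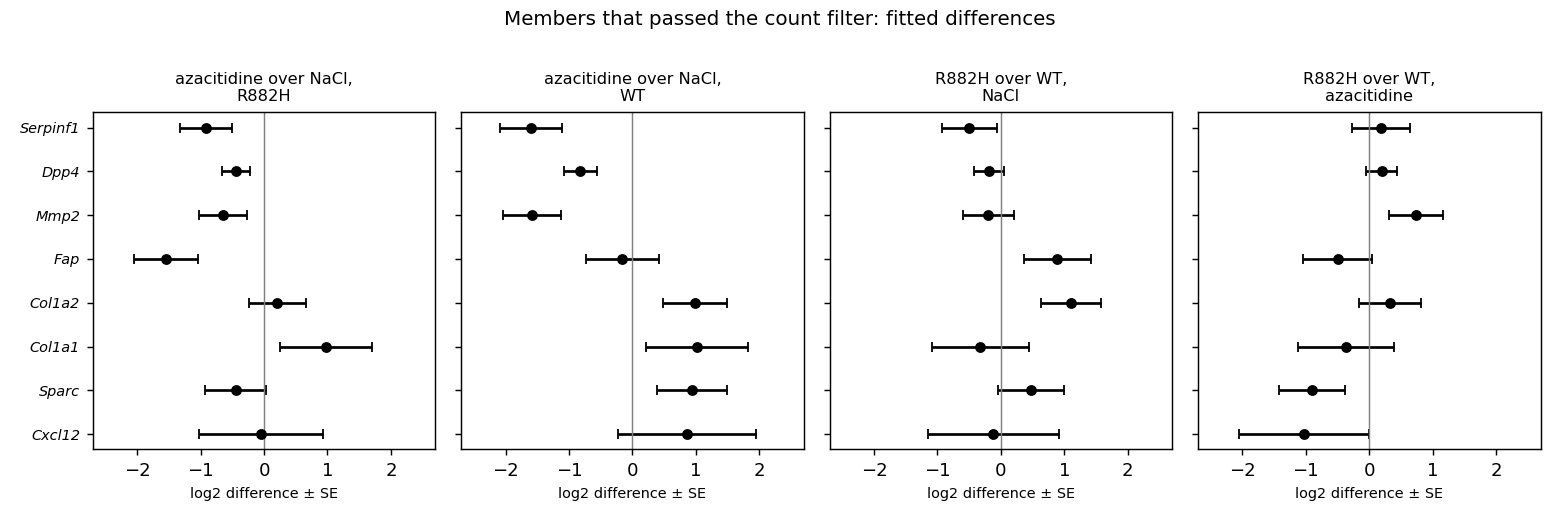
Fitted log2 differences ± SE from edgeR for the 8 members that passed the count filter, in 4 comparisons. Serpinf1, Dpp4 and Mmp2 lie left of 0 in both azacitidine panels, and none of the differences passed the adjusted threshold.

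Genotype was compared under each treatment. With NaCl, R882H over WT gave Serpinf1 -0.49 (SE 0.44), Dpp4 -0.19 and Mmp2 -0.20 on the log2 scale. Type I collagen chain Col1a2 gave 1.11 (SE 0.48), with an unadjusted p of 0.0341 and an edgeR adjusted p of 0.855. It was the 1 of 8 members under 0.05 unadjusted, where 1.96% of genes were lower and 3.64% higher. Members called numbered 0, against 0.00545% of genes. Groups that did not overlap numbered 0 as well, against 1.09% of genes lower and 0.878% higher. With azacitidine, R882H over WT gave Serpinf1 0.19, Dpp4 0.19 and Mmp2 0.73 (SE 0.42). No member was called, against 0.00545% of genes, and none was under 0.05 unadjusted, against 6.69% lower and 2.65% higher. None had groups apart, against 5.66% of genes lower and 5.05% higher. DESeq2 and limma-voom called no member in either genotype comparison.

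The azacitidine difference was also fitted within each class of library number, and the difference between the classes was not tested. Within libraries numbered 1 and 2, a split chosen after the components were seen and one that does not part the treated R882H libraries, the log2 difference of azacitidine over NaCl was 0.22 (SE 0.44) for Serpinf1, 0.12 (SE 0.23) for Dpp4 and 0.21 (SE 0.45) for Mmp2. Within those numbered 3 to 5 it was -1.49 (SE 0.17, edgeR adjusted p = 0.0191), -0.85 (SE 0.12, adjusted p = 0.0321) and -1.21 (SE 0.19, adjusted p = 0.0372). In that fit 1.24% of 18795 genes were called. In WT both classes lay below 0: those numbered 1 and 2 and those numbered 3 to 5 gave -1.83 (SE 0.45) and -1.28 (SE 0.24) for Serpinf1, -0.68 (SE 0.23) and -0.88 (SE 0.17) for Dpp4, and -1.49 (SE 0.46) and -1.38 (SE 0.28) for Mmp2. The second WT class holds 1 treated library, whose spread is taken from the other groups.

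**Figure D4:**
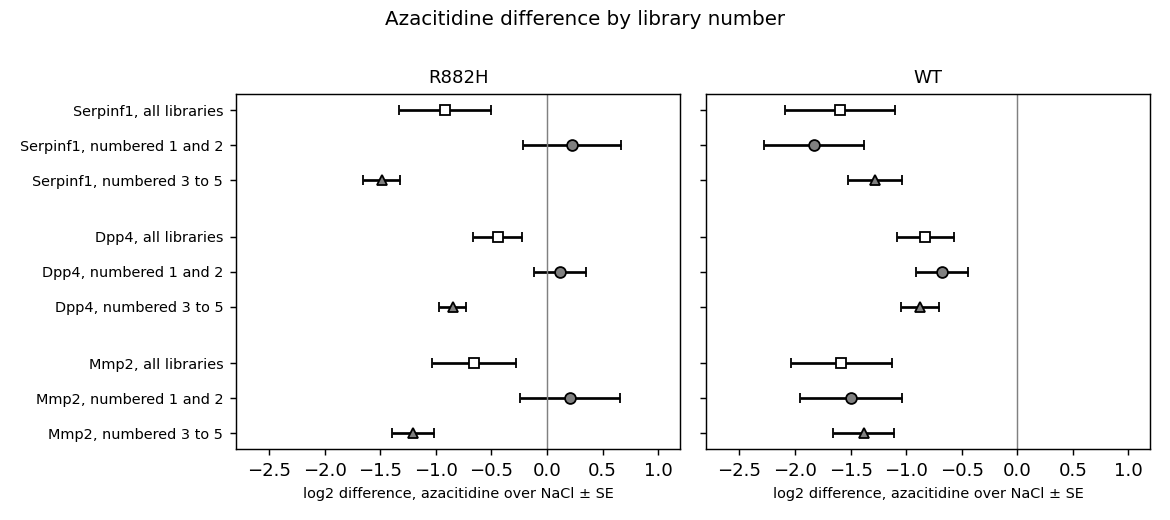
Log2 difference of azacitidine over NaCl ± SE for Serpinf1, Dpp4 and Mmp2, in all libraries (squares), in those numbered 1 and 2 (circles) and in those numbered 3 to 5 (triangles). In R882H the circles are near 0 and the triangles at -0.85 to -1.49, and in WT all points are below 0.

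Other measures also differed among the R882H libraries with NaCl. In R882H with NaCl the LSK marker sum was 2944 CPM in replicate 1, 2008 CPM in replicate 2, 5449 CPM in replicate 3 and 5418 CPM in replicate 4. The WT libraries with NaCl had 3527, 3363, 5116 and 5183 CPM, while their Serpinf1 level was 161, 149, 134 and 166 CPM. Not every LSK marker followed the sum in R882H with NaCl. Ly6a, which encodes Sca1, stood at 275.5, 48.5, 80.1 and 133.4 CPM and Myct1 at 121.6, 44.0, 109.3 and 119.9 CPM. Procr in replicate 1 lay between replicates 3 and 4. The other LSK markers were lower in replicate 1 than in replicates 3 and 4. T and NK cell markers summed to 702, 330, 337 and 318 CPM in R882H with NaCl and to 711, 678, 421 and 345 CPM in WT with NaCl. The T cell receptor component Cd3e stood at 24.2, 3.00, 0.168 and 0.291 CPM in R882H with NaCl. It was higher in replicates 1 and 2, where Serpinf1 was low. Cd3d, Cd3g, Trac, Trbc2, Cd8a, Cd8b1, Skap1 and Nkg7 of the same list were higher there too. Cd4, Cd247 and Lck were instead lowest in replicate 2, and Klrb1c in replicate 2 lay between replicates 3 and 4. In WT with NaCl, Cd3e stood at 0.047, 0, 0.152 and 0.445 CPM, and Nkg7 alone at 632, 590, 323.5 and 264 CPM. The part of the LSK and T cell markers in the differences was not tested.

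Col1a2, with 25 to 415 counts per library, was the only collagen chain of the set above 1 CPM on average. It stood at 8.85, 3.55, 3.53, 4.86 and 4.49 CPM in R882H with azacitidine and at 6.17, 2.88, 3.42 and 5.04 CPM in R882H with NaCl. WT libraries had 6.62, 2.90 and 2.52 CPM with azacitidine and 1.81, 0.667, 1.72 and 3.91 CPM with NaCl. All groups overlapped. The azacitidine difference was 0.21 (SE 0.45) in R882H and 0.98 (SE 0.51) in WT on the log2 scale. Its partner chain Col1a1, which joins Col1a2 in type I collagen, reached 0.741 ± 0.178 CPM (SD, n = 5) in R882H with azacitidine and 0.368 ± 0.495 CPM (SD, n = 4) in R882H with NaCl. It was 0.959 ± 0.445 CPM (SD, n = 3) in WT with azacitidine and 0.471 ± 0.147 CPM (SD, n = 4) in WT with NaCl. The lowest library had 0 counts of Col1a1 and the highest 57.

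Fap, the fibroblast protease, had 5 to 80 counts per library. It stood at 0.661, 0.860, 0.118, 0.428 and 0.321 CPM in R882H with azacitidine and at 2.07, 0.411, 1.91 and 1.27 CPM in R882H with NaCl. NaCl replicate 2 lay inside the treated range. The log2 difference was -1.55 (SE 0.50), with an unadjusted p of 0.00714 and an edgeR adjusted p of 0.494. In WT it averaged 0.681 ± 0.242 CPM (SD, n = 3) with azacitidine and 0.760 ± 0.124 CPM (SD, n = 4) with NaCl, a difference of -0.16 on the log2 scale.

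Sparc, a collagen-binding glycoprotein that platelets also store, was at 0.839, 0.893 and 0.924 CPM in WT with azacitidine and at 0.775, 0.240, 0.481 and 0.351 CPM in WT with NaCl. The WT groups did not overlap, with a log2 difference of 0.93 (SE 0.55, edgeR adjusted p = 0.877). In R882H it averaged 0.469 ± 0.294 CPM (SD, n = 5) with azacitidine and 0.642 ± 0.376 CPM (SD, n = 4) with NaCl. Markers of megakaryocytes and platelets summed to 387 to 984 CPM in WT with azacitidine and 315 to 454 CPM in WT with NaCl. In R882H they summed to 373 to 516 CPM with azacitidine and 258 to 367 CPM with NaCl, while mean Sparc was lower with azacitidine. The part of these markers in the Sparc values was not tested.

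Cxcl12, the niche chemokine, had 1 to 73 counts per library and means of 0.314 CPM in R882H with azacitidine, 0.324 CPM in R882H with NaCl, 0.644 CPM in WT with azacitidine and 0.356 CPM in WT with NaCl. WT with azacitidine replicate 1 held 1.75 CPM and the other 2 libraries of that group 0.0271 and 0.154 CPM. Lepr, the leptin receptor, had 7 counts over R882H with azacitidine, 3 over R882H with NaCl, 1 over WT with azacitidine and 15 over WT with NaCl. It failed the count filter over the 16 libraries, and it was not called in the fits where it entered, without the filter and within libraries numbered 3 to 5.

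**Figure D5:**
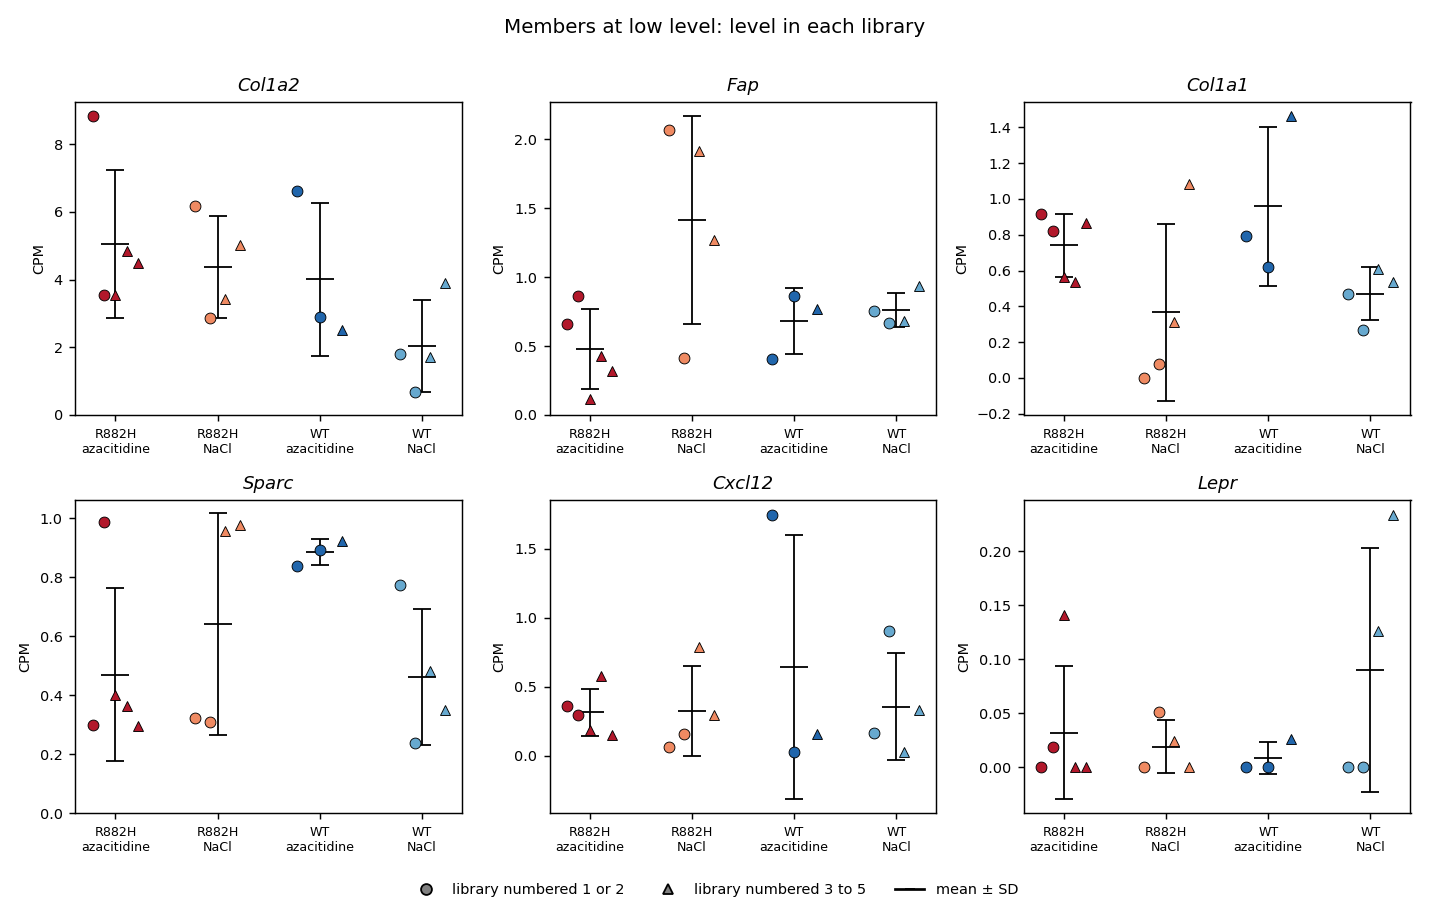
CPM of the 6 low members in each library by group, with mean ± SD; circles are libraries numbered 1 or 2 and triangles those numbered 3 to 5. Col1a2 reaches 8.85 CPM, and in the other 5 genes no library exceeds 2.07 CPM.

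Over the 16 libraries Mmp2 and Dpp4 had a Pearson r of 0.894 (Spearman rho 0.818) in log2 CPM, Serpinf1 and Dpp4 0.833 (rho 0.729), and Serpinf1 and Mmp2 0.778 (rho 0.650). The next highest pair of members was Mmp2 and Fap at 0.444. Among 11610 genes compared, those most like Serpinf1 were Them7 (r = 0.923), the integrin subunit Itgb5 (r = 0.896) and Wdr86 (r = 0.888). Shtn1 (r = 0.939), the cytokine gene Il18 (r = 0.937) and Rhbdf1 (r = 0.935) were most like Mmp2. For Dpp4 they were Scube3 (r = 0.910), the adenylate kinase Ak4 (r = 0.902) and, again, Itgb5 (r = 0.896). Itgb5 ranged from 13.0 to 88.7 CPM. For Col1a2 the nearest was Ehd3 (r = 0.909), a membrane-trafficking gene, and for Fap Tceal1 (r = 0.859). These are descriptions over libraries that share groups and library numbers.

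Relatives and partners of the members gave no call in any of the 5 comparisons in edgeR, where 0 to 0.00545% of all genes were called. Of 18 other Lepr-positive and reticular stromal genes 7 could be tested; in WT with azacitidine over NaCl 2 were lower at an unadjusted p under 0.05, as were 2.03% of all genes, and the median log2 difference of the 7 was -1.004, against 0.01 over all genes. These were Il7, a lymphoid growth factor, at -1.004 (SE 0.41), and the adhesion molecule Vcam1 at -2.34 (SE 1.10). In R882H none of the 7 passed unadjusted, where 4.45% of all genes were lower and 2.24% higher. Their median was -0.33, against -0.04 over all genes. Of 19 other collagen chains 8 were tested, with medians of -0.16 in R882H and -0.92 in WT; Col5a1, a fibril-starting chain, had -3.11 (SE 0.80, edgeR adjusted p = 0.413) in R882H, at 2.94 ± 0.856 CPM (SD, n = 5) with azacitidine and 25.3 ± 35.2 CPM (SD, n = 4) with NaCl. Of 20 genes of collagen folding, processing and crosslinking 17 were tested, with medians of -0.11 in R882H and -0.175 in WT. The prolyl hydroxylase P4ha2 was at -1.51 (SE 0.52) in R882H.

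Of 28 other matrix glycoproteins and proteoglycans 15 were tested. In R882H 3 were lower and 2 higher with azacitidine at an unadjusted p under 0.05, where 4.45% of all genes were lower and 2.24% higher. In WT 1 was lower and 1 higher, where 2.03% of all genes were lower and 3.99% higher. Ecm1, a secreted matrix protein, was at 1.08 (SE 0.26) in R882H and 0.89 (SE 0.29) in WT, and biglycan, Bgn, at -1.03 (SE 0.35) in R882H and -1.01 (SE 0.42) in WT. Ecm1 stood at 34.1 ± 9.93 CPM (SD, n = 5) in R882H with azacitidine and 16.1 ± 4.14 CPM (SD, n = 4) in R882H with NaCl. Of 20 other matrix metalloproteases and inhibitors 13 were tested. At an unadjusted p under 0.05, 1 was lower and 0 higher in R882H, and 1 was lower and 2 higher in WT. The shares of all genes are those given above. Mmp14, which activates Mmp2, was at -1.12 (SE 0.39) in R882H, where NaCl libraries had 59.67 ± 53.35 CPM (SD, n = 4). Mmp19 had the lowest p of the list in WT, at 2.99 (SE 0.81), from 0.987 CPM with azacitidine and 0.121 CPM with NaCl. Timp2, which binds Mmp2, was at -0.69 (SE 0.29) in WT. Timp3, an inhibitor held in the matrix, was at 1.31 (SE 0.36) in WT. Of 10 other prolyl peptidases 8 were tested, with medians of 0.02 in R882H and -0.08 in WT.

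Of 5 other serpins 3 were tested, and Serpine2, a thrombin inhibitor, was at 1.49 (SE 0.46) in WT. All 9 receptors and adhesion partners were tested. Cxcr4, the receptor for Cxcl12, stood at 20.6 ± 6.41 CPM (SD, n = 5) in R882H with azacitidine and 18.8 ± 3.60 CPM (SD, n = 4) in R882H with NaCl. It was 38.8 ± 16.3 CPM (SD, n = 3) in WT with azacitidine and 25.4 ± 4.15 CPM (SD, n = 4) in WT with NaCl. Its log2 difference was -0.91 (SE 0.26, edgeR adjusted p = 0.533) in R882H over WT with azacitidine. Of 9 leptin signalling genes 8 were tested, and none passed an unadjusted p of 0.05 in any comparison. Over all genes, depending on the comparison, 1.96 to 6.69% were lower and 1.16 to 3.99% higher at that threshold. Of 11 receptors for collagen and Serpinf1 8 were tested, with Itga1, a collagen-binding integrin, at 1.51 (SE 0.48) in WT with azacitidine over NaCl.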

How the data were processed

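RNA-seq was analysed from 16 libraries. Members and lists were chosen with earlier results of these data known. The authors deposited raw counts per gene and FPKM, and a length column (other unit, in bases). Tools named in the submitters' processing notes are HISAT2 2.0.5, featureCounts 1.6.2 and edgeR 3.26.6, with build GRCm38, also called mm10; strand and multimapping settings are not given in the sources used here. In every library the deposited FPKM equalled the count over length and a constant. Per the labels' protocols, RNA with a RIN under 8 was excluded and cDNA was amplified, without molecular identifiers, so SD and SE cover the spread between libraries.

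Repeats were left out. Genes were filtered with filterByExpr (edgeR 4.0.16, R 4.3.3), leaving 18341, and fitted by quasi-likelihood with TMM and 1 coefficient per group; p-values were adjusted by Benjamini-Hochberg over all genes tested, with calls under 0.05. The common dispersion was 0.166. Tested on simulated data over 18341 genes, 22 to 30% of 100 genes altered 2-fold and 66 to 70% of 100 altered 4-fold were recovered, depending on the comparison. Simulated counts were drawn independently for each library and hold no split by library number, so recovery in the real libraries can differ. Between the NaCl groups the 4 same-number correlations were 0.101 to 0.342, a likeness seen in the data and not stated in the labels. Both groups share the split of libraries 1 and 2 on the first component. These correlations therefore do not tell a pairing of single numbers from that split. Number 3 of the WT groups had 0.345, so such values were not confined to the NaCl groups. DESeq2 1.42.0 and limma 3.58.1 served as alternatives. No library was a copy of another of its group: chi-square per gene was 42.0 or more in all 25 pairs. Named genes were all members, up to 3 per list and comparison with the lowest p, and the 3 genes most correlated with a member (log2 CPM, prior count 2). A gene outside the set that was called between genotypes is not reported here.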

Additional observations from a re-analysis of the deposited data

Results flagged for a closer look

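Each of the 9 members was taken in each group of 4 or 5 libraries, which gave 27 sets. Of these, 3 held a library far from the others of its group. For normally distributed values chance gives about 1 in 20, a rate that need not hold for low counts such as those of Lepr. The sets share libraries and are not independent, so the count cannot be held against that rate. All 3 were in R882H with azacitidine. Col1a2 reached 8.85 CPM in replicate 1, against 3.53 to 4.86 CPM in the other 4 libraries. Sparc reached 0.988 CPM in replicate 2, against 0.296 to 0.400 CPM in the others. Lepr reached 0.141 CPM in replicate 3, from 6 counts, against 0 to 0.0183 CPM in the others.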

How the results depend on the processing

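Across 720 refits of 29 reported member differences, 701 kept direction and side of the threshold, 16 turned direction and 3 newly passed. Of the 662 planned ones, 657 kept both. No member was called in the main fit, so keeping the side means staying uncalled. Members newly passed only for azacitidine in R882H within libraries numbered 3 to 5, a split chosen after the components were seen. The 720 include refits that left out a library of a group outside the comparison, which bear little on its difference. Numbered alone, libraries 1 and 2 turned the R882H azacitidine difference of Serpinf1 to 0.22, Mmp2 to 0.21, Dpp4 to 0.12 and Sparc to 1.03, and that of Fap in R882H over WT with azacitidine to 0.31. Libraries 3 to 5 alone turned Col1a1 in R882H to -0.11, Col1a2 in WT to -0.17, the difference of responses to -0.21 for Serpinf1 and 0.18 for Col1a2, and R882H over WT with NaCl to 0.22 for Serpinf1 and 0.031 for Dpp4; the cause was not tested. Leaving out 1 library at a time gave -0.091 to 0.42 for Col1a2 (azacitidine, R882H), -0.37 to 0.10 for Fap (azacitidine, WT), -0.48 to 0.095 for Mmp2 (R882H over WT, NaCl) and -0.16 to 0.43 for Serpinf1 (R882H over WT, azacitidine).

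Over all groups the replicate numbers did not pair the libraries: 21 same-number pairs had correlations of -0.12 to 0.34, 9 over 0.1, and 6 of 16 libraries correlated best with their own number. Between the NaCl groups all 4 pairs were over 0.1, and there the block changed no call of a member. With a replicate block, Serpinf1 in R882H over WT with azacitidine was -0.0087 and the calls were 0 for azacitidine in R882H, 0 in WT, 0 for the difference, 1 for genotype with NaCl and 0 with azacitidine, against 1, 0, 0, 1 and 1 without it. In the same order DESeq2 called 97, 53, 12, 28 and 21 genes, and limma-voom 1, 0, 0, 1 and 0. No filter on low counts left 0 throughout, as did fits of only the groups compared, which give no difference of responses. A term for libraries 1 and 2 gave 2, 0, 0, 2 and 0. Libraries 1 and 2 alone gave 53, 0, 4, 1 and 9, and libraries 3 to 5 alone 233, 1, 2, 2 and 2. Leaving out 1 library gave 0 to 1, 0 to 7, 0 to 0, 0 to 1 and 0 to 1; WT with azacitidine replicate 3 was the one whose absence gave 7. With the plain gene-count total, members whose WT groups did not overlap fell to 3, against 5. Depth limits Lepr, Cxcl12, Col1a1, Sparc and Fap, which have at most 80 counts in a library.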
